A study of Nicotiana tabacum with 9 samples.

Results

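Light-harvesting chlorophyll a/b-binding genes were followed in the leaves of 3 tobacco (Nicotiana tabacum) plant materials. Members were all genes whose deposited description holds "Chlorophyll a/b binding protein domain" or "Chlorophyll A-B binding protein", in any case, and there were 93 of them among the 69500 genes listed. Leaf RNA was sequenced from the genotypes K326, Y and KY, in 9 libraries, 3 for each. K326 is a flue-cured tobacco cultivar. The labels leave unsaid what the materials Y and KY are, whether KY derives from the other materials, at what age or under what treatment leaves were taken, or whether the replicates were separate plants. P-values therefore measure only how far these libraries spread, and that spread may be technical.

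Light-harvesting proteins are encoded in the nucleus, imported into the chloroplast and inserted into the thylakoid membrane, where they bind chlorophyll a, chlorophyll b and carotenoids. As antennae they pass absorbed light energy to the reaction centres of photosystem I and photosystem II, and the trimers around photosystem II are among the most abundant membrane proteins of a leaf. The family is large in plants and many of its genes lie in tandem copies. Some related proteins that carry the same domain serve in photoprotection instead of light capture. The deposited descriptions do not say which photosystem a member serves, so no member is given a subunit name here.

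The table gives an expression signal per gene and library whose unit is not named and which sums to between 551496 and 603165 per library. Read depth is unknown, and so is whether the signal is divided by gene length, so the order of levels between members is that of the deposited signal only. Across all tested genes, KY replicate 1 correlated better with K326 replicate 3 (r = 0.954) than with KY replicate 2 (r = 0.899) or KY replicate 3 (r = 0.94), a correlation across genes, which are not independent replicates. The leaf label matched the data: genes for the small chain of Rubisco, the carbon-fixing enzyme of leaves, summed to between 53817 and 78371 per library, and 44 seed storage and oleosin genes to between 11.7 and 15.5. A list of 165 genes with pollen descriptions, 67 of them at 0 in every library, summed to between 965 and 1165 in K326 and between 647 and 743 in Y, and to 1254, 501 and 719 in KY replicates 1, 2 and 3. Every K326 library lay above every Y library in this sum, whose part in the antenna levels was not tested. No gene carried a Casparian strip description, so a root marker could not be looked at. Histone genes, which mark dividing cells, summed to between 2732 and 5021 in K326 and between 1508 and 2171 in Y, and to 3638, 1450 and 1602 in KY replicates 1, 2 and 3. Of these 165 genes, 26 were listed at 0 in every library.

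The members fell into level classes by their mean over the 9 libraries. In the highest class, with means of at least 1000, 16 members held 68.7% of the summed signal of all 93, and another 33 members with means from 100 up to 1000 held 29.4%. A further 16 members had means from 10 up to 100 and together held 1.78%, and 7 had means from 1 up to 10. The remaining 14 members above 0 had means below 1, and 7 members were listed at 0 in every library. The 72 members with a mean of at least 1 were tested. The members nearest to that limit were Nitab4.5_0004269g0090, with a mean of 1.21, just inside and Nitab4.5_0004044g0020, with a mean of 0.832, just outside.

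As a whole the family took a larger part of the leaf signal in KY than in K326, but 1 KY library did not show this. The summed signal of all members was 31693, 38192 and 43305 in K326 replicates 1 to 3, or 37730 ± 5820 (SD, n = 3). In Y it was 45393, 38595 and 42158 (42049 ± 3401), and in KY it was 54571, 37527 and 55070 (49056 ± 9988). KY replicates 1 and 3 lay above all other libraries, while KY replicate 2 lay below every Y library and inside the K326 range, so that the groups overlapped in each pair of materials. As a share of all listed signal the family made up 6.61% ± 0.796 in K326, 7.29% ± 0.53 in Y and 8.4% ± 1.49 in KY (SD, n = 3). In bulk leaf RNA, fewer cells of a type and less RNA per cell cannot be told apart. The histone sum was high in KY replicate 1 and low in KY replicate 3, which had nearly the same antenna sum, and KY replicate 2 had the lowest histone sum of all. The part of dividing cells in the antenna levels was not tested.

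**Figure D1:**
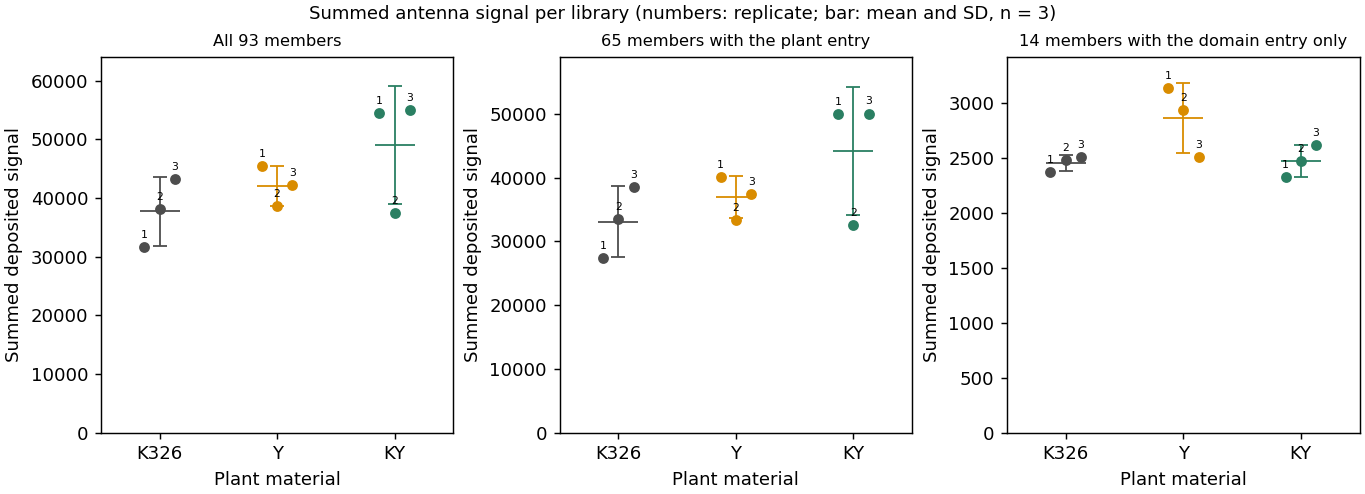
Summed deposited signal of antenna members per library (vertical axis, from 0) in K326, Y and KY, for all 93 members, the 65 with the plant entry and the 14 with the domain entry only; points are libraries numbered by replicate, and bars are the mean and SD over 3 libraries. KY replicates 1 and 3 reach 54571 and 55070 over all members and KY replicate 2 reaches 37527, whereas the domain-only sum of the 3 KY libraries stays between 2327 and 2615.

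The difference between libraries ran through most members. K326 replicate 1 was the lowest K326 library for 54 of the 72 tested members and the lowest of all 9 libraries for 36. KY replicate 2 was the lowest KY library for 54 members, and KY replicate 3 was the highest of all 9 libraries for 28 members and KY replicate 1 for 17. The spread between libraries of 1 material was widest in KY, with a median coefficient of variation of 21.3% over the tested members against 18.2% in K326 and 12.7% in Y. It exceeded 30% for 23 members in KY, 8 in K326 and 10 in Y. K326 replicate 1 and KY replicate 2 also had the lowest sums over all listed genes, 551496 and 560208. The same counts were not made over all tested genes, so whether they are particular to the antenna members was not tested.

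By the order of their means, 33 of the 72 tested members were highest in KY, then Y, then K326. That order was held by 8.69% of all 16348 tested genes. A further 17 members were highest in Y and lowest in K326, and 3 members were highest in K326. These are counts of means and take no account of the spread; where libraries were compared, fewer members were set apart, as given below.

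The descriptions divide the family in a way that the levels followed. Of the 93 members, 65 carry the domain entry, the protein entry and an entry marked "plant", 9 carry the domain and protein entries, 14 carry the domain entry only, and 5 combine antenna entries with those of other proteins (3 with a Rieske iron-sulphur domain, 1 with ferrochelatase, an enzyme of haem synthesis, and 1 with a beta/gamma crystallin entry). The plant-entry members held 88.7% of the family's signal. They summed to 33093 ± 5574 in K326, 36966 ± 3345 in Y and 44184 ± 10043 in KY (SD, n = 3). Of their 54 tested members, 39 had their highest mean in KY and 42 their lowest in K326, and KY replicate 2 was the lowest KY library for 47. The 39 include Nitab4.5_0000592g0380, which reached the mean needed for testing through KY alone.

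The 14 domain-only members behaved otherwise in their values. They summed to 2454 ± 71.3 in K326, 2861 ± 320 in Y and 2470 ± 144 in KY (SD, n = 3). Y replicates 1 and 2, at 3138 and 2934, lay above all K326 and KY libraries, and Y replicate 3, at 2510, lay among them. Of 11 tested domain-only members, 10 had their highest mean in Y and 0 in KY, and KY replicate 2 was the lowest KY library for 5. Within K326 their median coefficient of variation was 4.9%, against 19.9% for the plant-entry members. This division was looked at with the values known, and the difference between the classes was not tested.

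**Figure D2:**
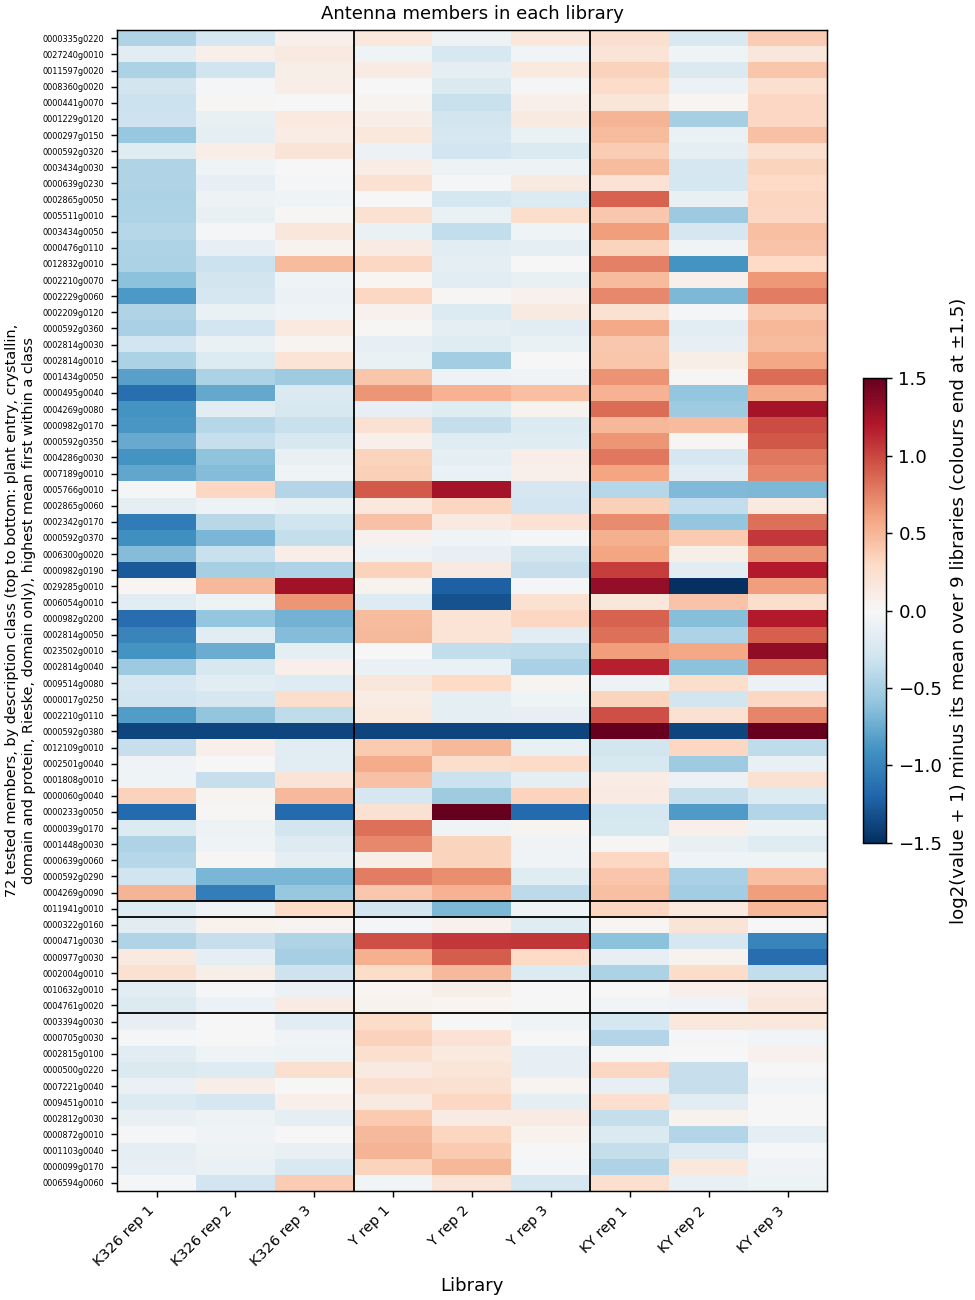
Each row is 1 of the 72 tested members, each column a library, and colour gives log2(value + 1) minus the member's mean over the 9 libraries. Rows are grouped by description class. In the upper block of plant-entry members K326 replicate 1 is mostly blue and KY replicates 1 and 3 mostly red, while in the lowest block, the 11 domain-only members, Y replicates 1 and 2 are mostly the reddest columns.

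The 10 members with the highest levels held 52.6% of the family's signal, and all were plant-entry members. Nitab4.5_0000335g0220 stood at 2698, 3074 and 3871 in K326, 4104, 3504 and 4094 in Y and 4361, 3147 and 4790 in KY replicates 1 to 3. Nitab4.5_0027240g0010 stood at 2911, 3450 and 3574 in K326, 3127, 2757 and 3159 in Y and 3730, 3124 and 3658 in KY. Nitab4.5_0011597g0020 stood at 2274, 2572 and 3365 in K326, 3437, 2866 and 3488 in Y and 4006, 2719 and 4209 in KY. In these leading members the libraries of each pair of materials overlapped, with KY replicate 2 the lowest KY library in each.

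The next 5 were Nitab4.5_0008360g0020, Nitab4.5_0000441g0070, Nitab4.5_0001229g0120, Nitab4.5_0000297g0150 and Nitab4.5_0000592g0320, with means over the 9 libraries from 1767 to 1972. Their KY means were 1.10 to 1.38 times those of K326. For Nitab4.5_0000441g0070 the KY libraries, at 2203, 1974 and 2399, did lie just above the K326 libraries, at 1549, 1959 and 1952, without passing the test (log2 difference 0.27, SE 0.15, limma adjusted p = 0.534). Under quantile normalization the difference was -0.031. Nitab4.5_0003434g0030 had means of 1437 in K326, 1591 in Y and 1866 in KY, and Nitab4.5_0000639g0230 had means of 1129, 1400 and 1387. Of the 16 members in the highest class, 0 were called in any comparison by limma. At an unadjusted p below 0.05, 2 were higher in KY than in K326, where 2.28% of all tested genes were. In the other direction or comparisons 0 of the 16 passed.

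Comparing Y with K326 asks which antenna genes separate these materials. In the limma fit, with p-values adjusted by Benjamini-Hochberg over all tested genes and calls below 0.05, 1 of the 72 tested members rose and 0 fell. Among all tested genes 1.99% were called, 0.777% as higher and 1.21% as lower. At an unadjusted p below 0.05, 13 members were higher and 0 lower, where 4.32% and 8.18% of all tested genes were. The Y libraries lay entirely above the K326 libraries for 24 members, or 33.3%, against 7.41% of all tested genes, and entirely below for 0, against 14.7%. The fitted difference was above 0 for 59 members, or 81.9%, against 40% of all tested genes. The median member difference was 0.23 on the log2(value + 1) scale, the quartiles were 0.08 and 0.48, and the median over all tested genes was -0.08. Under median-of-ratios scaling the latter was 0.02 and the member median 0.36, and under quantile normalization they were 0.02 and 0.15. The member median thus exceeded that of all tested genes by 0.31 in the deposited values, 0.34 under median-of-ratios scaling and 0.13 under quantile normalization. Whole-table calls, 127 higher and 198 lower, became 150 and 166 under the first scaling and 153 and 174 under the second.

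The member that rose was Nitab4.5_0000471g0030, with the domain and protein entries. It stood at 54.9, 58.9 and 54.9 in K326, 149, 159 and 159 in Y and 49.0, 62.8 and 37.3 in KY replicates 1 to 3. All Y libraries lay far above the K326 and KY libraries, which overlapped each other. Its Y mean was 2.77 times that of K326 (log2 difference 1.45, SE 0.18, limma adjusted p = 0.00358). KY was lower than Y by as clear a step (log2 difference -1.66, SE 0.18, limma adjusted p = 0.00237). Both calls held in all 19 alternative settings, with limma adjusted p from 0.00111 to 0.0242 and from 0.00159 to 0.0262.

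Differences of more than 1 on the log2 scale that missed the threshold were seen in 2 members whose Y and K326 libraries did not overlap. Nitab4.5_0000495g0040 stood at 245, 314 and 461 in K326, 849, 768 and 734 in Y and 771, 357 and 788 in KY. Its Y mean was 2.31 times that of K326 (log2 difference 1.25, SE 0.32, limma adjusted p = 0.127). Nitab4.5_0000982g0200 stood at 49.7, 73.8 and 67.9 in K326, 155, 129 and 139 in Y and 207, 71.1 and 256 in KY (Y against K326, log2 difference 1.14, SE 0.41, limma adjusted p = 0.3). In both members the KY values fell apart into a pair of high libraries and KY replicate 2 near the K326 level. When that library was left out, or only Y and K326 were fitted, both passed the test for Y against K326 (limma adjusted p from 0.0197 to 0.0467). KY replicate 2 belongs to neither material compared, and without it the differences stayed at 1.25 and 1.14. Only their SE fell, to 0.22 and 0.18. The library was picked for its values, so these calls are no separate test.

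**Figure D3:**
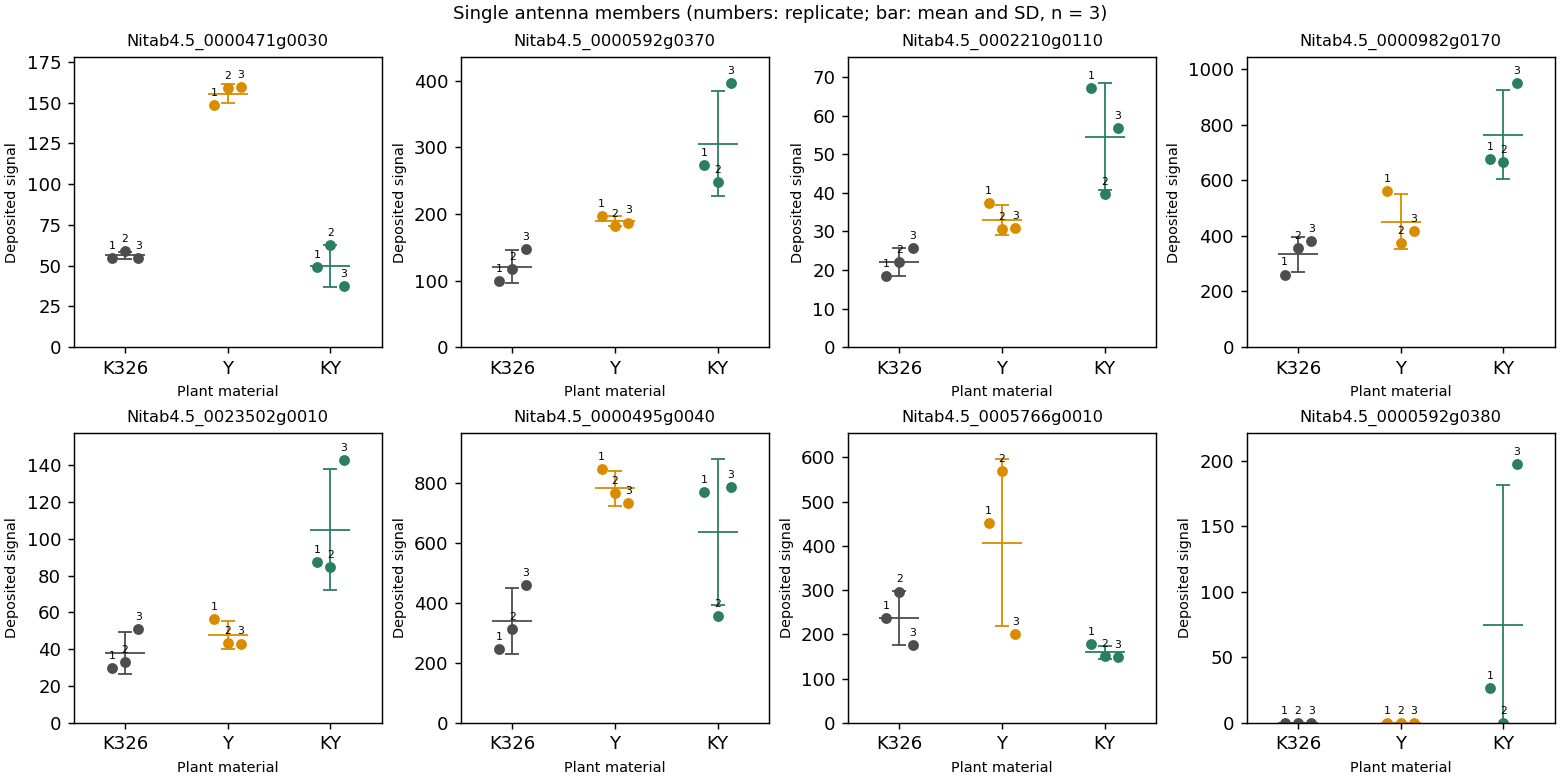
Deposited signal (vertical axis, from 0) of 8 members in the 3 materials; points are libraries numbered by replicate, bars the mean and SD over 3 libraries. Nitab4.5_0000471g0030 is raised in all 3 Y libraries, from 149 to 159, Nitab4.5_0000592g0370, Nitab4.5_0002210g0110, Nitab4.5_0000982g0170 and Nitab4.5_0023502g0010 are highest in KY, and Nitab4.5_0000592g0380 is above 0 in only 2 KY libraries.

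For KY, the same question was put against the same K326 libraries, so this comparison and the one above share their controls. By limma 2 of the 72 tested members rose and 0 fell, while 0.789% of all tested genes were called, 0.232% as higher and 0.557% as lower. At an unadjusted p below 0.05, 22 members were higher and 0 lower, where 2.28% and 9.13% of all tested genes were. The KY libraries lay entirely above the K326 libraries for 13 members, or 18.1%, against 3.21% of all tested genes, and entirely below for 1, against 12.4%. The fitted difference was above 0 for 60 members, or 83.3%, against 30.5% of all tested genes. Nitab4.5_0000592g0380 is among the 22 and the 60. It was at 0 in every K326 library and reached the mean of 1 through KY alone, so its part in these counts is no result. The median member difference was 0.25, with -0.14 over all tested genes. That last value became 0.02 under median-of-ratios scaling, where 50 genes of the whole table were called higher and 72 lower in place of 38 and 91, and the members then had a median of 0.45. Relative to all tested genes the member median was higher by 0.39 in the deposited values, 0.43 under median-of-ratios scaling and 0.17 under quantile normalization.

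Nitab4.5_0000592g0370 rose the more clearly of the called pair. It stood at 99.4, 117 and 147 in K326, 197, 182 and 187 in Y and 273, 248 and 396 in KY replicates 1 to 3. No library of any material overlapped another material's, and the KY mean was 2.52 times that of K326 (log2 difference 1.32, SE 0.21, limma adjusted p = 0.0248). With only KY and K326 in the fit the adjusted p from limma was 0.123. Omitting 1 library ended the call for 5 of the 9: KY replicate 3, K326 replicates 1 and 2, and Y replicates 1 and 2, with limma adjusted p from 0.0542 to 0.125. The difference stayed between 1.12 and 1.52 in all 19 alternatives.

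The other, Nitab4.5_0002210g0110, stood at 18.5, 22.1 and 25.7 in K326, 37.5, 30.7 and 30.8 in Y and 67.1, 39.7 and 56.9 in KY. Here too the libraries of the 3 materials formed separate steps. Its KY mean was 2.47 times that of K326 (log2 difference 1.25, SE 0.22, limma adjusted p = 0.0419). It missed the threshold in 10 of 19 alternatives, with limma adjusted p from 0.0666 to 0.196: unfiltered, with KY and K326 alone in the fit, with a replicate block, and on omitting KY replicate 3 or any 1 library of K326 or Y.

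Just outside the threshold stood 2 members whose K326 and Y libraries overlapped. Nitab4.5_0000982g0170 had values of 261, 357 and 381 in K326, 562, 375 and 417 in Y and 677, 665 and 949 in KY (KY against K326, log2 difference 1.19, SE 0.22, limma adjusted p = 0.0517). Nitab4.5_0023502g0010 had values of 29.8, 33.2 and 51.0 in K326, 56.3, 43.3 and 43.1 in Y and 87.3, 84.8 and 143 in KY (log2 difference 1.44, SE 0.27, limma adjusted p = 0.0522). In both, all KY libraries lay above the other materials, and for the second KY exceeded Y by 1.10 on the log2 scale (SE 0.27, limma adjusted p = 0.111). Both passed the test when libraries were scaled to an equal sum (limma adjusted p = 0.0445 and 0.0461) or without KY replicate 1 (limma adjusted p = 0.0387 and 0.037), and the second also without K326 replicate 3 (limma adjusted p = 0.0447). K326 replicate 3 held the highest K326 value of the second, and calls made on omitting a library are no separate test.

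A pair of further plant-entry members had KY libraries above all K326 libraries and a difference of more than 1 on the log2 scale without a call. Nitab4.5_0001434g0050 had means of 384 in K326, 630 in Y and 855 in KY (KY against K326, log2 difference 1.12, SE 0.23, limma adjusted p = 0.091). Nitab4.5_0000982g0190 had means of 79.6, 136 and 226 (log2 difference 1.43, SE 0.38, limma adjusted p = 0.196). Without KY replicate 2, which held the lowest KY value of each, both were called (limma adjusted p = 0.0212 and 0.0384). Without that library 7 members above 0 in K326 were called higher in KY, where 0.184% of all tested genes were, 30 in place of 38. They were these 2, both genes called with all libraries, Nitab4.5_0000592g0350, Nitab4.5_0000982g0200 and Nitab4.5_0004269g0080. KY replicate 2 was the lowest KY library for 54 tested members, so its omission by itself raised their KY means. The calls made without it are therefore no separate test, and their number beside the share of all tested genes follows in part from that choice. An eighth call, of Nitab4.5_0000592g0380, is not read as a result, since that gene was listed at 0 in every K326 library and the omitted library held its only 0 in KY. Without KY replicate 1, the library that stood apart over the whole table, 4 members were called higher, and calls over all genes rose with them, from 129 to 655, of which 105 were higher, or 0.642% of all tested genes. On omitting KY replicate 3, K326 replicates 1 or 2, or Y replicates 1 or 2, 0 were called, and on omitting Y replicate 3 there was 1.

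Between KY and Y, each set against K326 above, some members were higher in KY and others lower. By limma 0 of 72 were higher and 1 was lower, the gene Nitab4.5_0000471g0030 described above, against 0.483% and 0.814% of all tested genes, together 1.3%. At an unadjusted p below 0.05, 11 members, or 15.3%, were higher in KY and 8, or 11.1%, lower, where 4.24% and 8.96% of all tested genes were. The KY libraries lay entirely above the Y libraries for 8 members, or 11.1%, against 5.39% of all tested genes. They lay entirely below for 9, or 12.5%, against 11.2%. The counts of lower members thus lay near the shares of all tested genes. The fitted difference was above 0 for 44 members, or 61.1%, against 43.8% of all tested genes. Nitab4.5_0000592g0380, which reached the mean needed for testing through KY alone, is among the 11 and the 44. The median member difference was 0.12, and -0.05 over all tested genes.

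Of the 8 members whose KY libraries lay above the Y libraries, 7 were plant-entry members and the other was Nitab4.5_0011941g0010, with the crystallin entry. It stood at 611, 543 and 691 in KY, 400, 307 and 469 in Y and between 427 and 598 in K326 (KY against Y, log2 difference 0.66, SE 0.19, limma adjusted p = 0.185). Of the 9 members whose KY libraries lay below the Y libraries, 5 were domain-only members, among them Nitab4.5_0001103g0040, at 69.5, 77.9 and 87.9 in KY, 128, 117 and 89.7 in Y and 81.0, 84.7 and 82.4 in K326. Of these 5, limma called 0, and 4 domain-only members were lower at an unadjusted p below 0.05. The K326 values of that gene lay within a narrow band that the KY libraries spanned.

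Nitab4.5_0005766g0010 was the other member whose KY libraries all lay below the Y libraries by a mean difference of more than 1 on the log2 scale. It stood at 237, 297 and 176 in K326, 452, 570 and 200 in Y and 177, 151 and 149 in KY. The Y libraries disagreed among themselves, with Y replicate 3 close to KY, and the difference missed the threshold (log2 difference -1.23, SE 0.36, limma adjusted p = 0.184). Without Y replicate 3 it was called (log2 difference -1.67, limma adjusted p = 0.0178). That library held the Y value nearest to KY, so its omission by itself raised the Y mean. The call made without it is therefore no separate test.

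**Figure D4:**
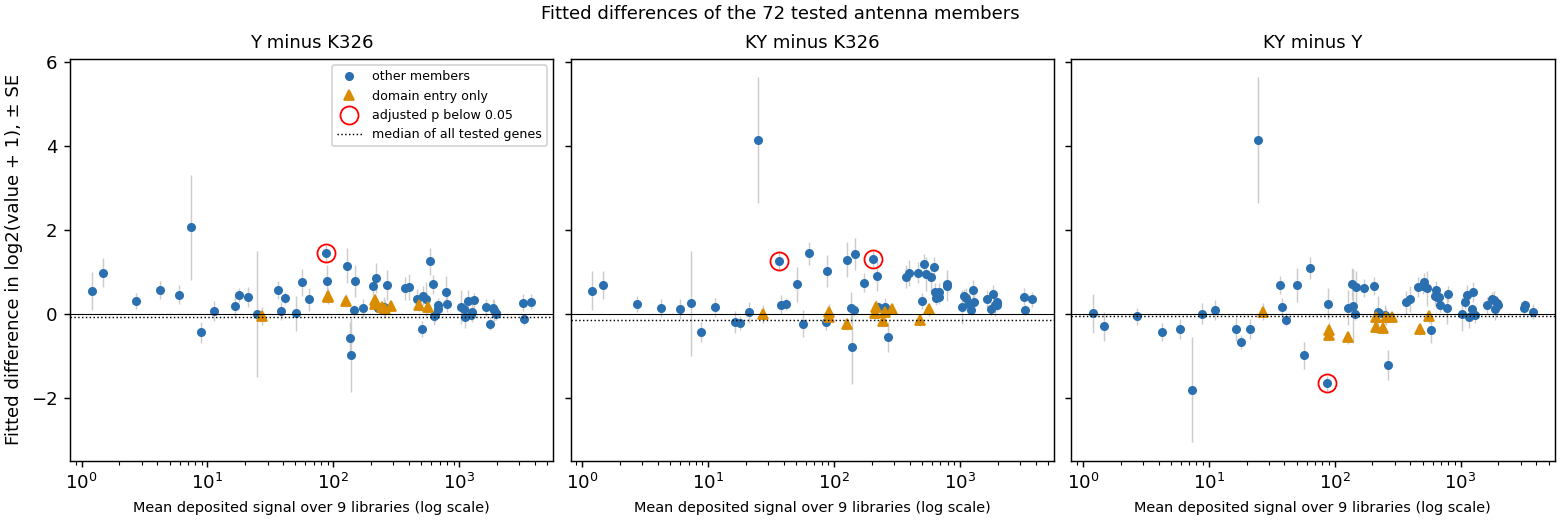
Fitted difference in log2(value + 1) of each of the 72 tested members (vertical axis, with its SE) against its mean deposited signal over the 9 libraries (horizontal log axis), for the 3 comparisons; triangles are domain-only members, red circles calls at an adjusted p below 0.05, and the dotted line the median of all 16348 tested genes. The 16 members with means of at least 1000 lie from -0.23 to 0.32 for Y minus K326. For KY minus K326 all 16 lie above 0, from 0.08 to 0.57, and wider differences lie at lower levels.

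The median difference varied with level, in another order in each comparison. For KY against K326 the median difference was 0.28 among the 16 members with means of at least 1000, 0.41 among the 33 with means from 100 up to 1000 and 0.09 among the 16 with means from 10 up to 100. For Y against K326 the same classes had medians of 0.10, 0.23 and 0.39. In the class from 100 up to 1000 the leading members were Nitab4.5_0002210g0070, with means of 627 in K326, 730 in Y and 1030 in KY, and Nitab4.5_0002229g0060, with means of 572, 809 and 975. In the class below, beside Nitab4.5_0001103g0040, the other leading member was Nitab4.5_0000099g0170, at 82.0, 82.8 and 75.7 in K326, 113, 127 and 88.1 in Y and 64.4, 99.9 and 85.6 in KY. Both of these are domain-only members. The tested member with the smallest spread over the 9 libraries was Nitab4.5_0010632g0010, one of those with a Rieske domain, which ranged from 199 to 245.

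Members that share a scaffold number in their identifiers, and so may be neighbours, were common. On 8 scaffolds there were 2 to 6 members each, 23 in all and all tested. Of these 23, 19 had their highest mean in KY, while 24 of the other 49 tested members did. Among all tested genes, 8.69% had the order KY, Y, K326 and 12.1% the order KY, K326, Y. Members on a scaffold are not independent, and 5 of the 19 lie on the scaffold of Nitab4.5_0000592g0370. These include Nitab4.5_0000592g0380, which reached the mean needed for testing through KY alone. Near-identical copies share reads, so values of single copies on a scaffold are uncertain and their sums less so.

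The 6 members on the scaffold of Nitab4.5_0000592g0370 covered almost the whole range of levels. Nitab4.5_0000592g0320 had means of 1802 in K326, 1525 in Y and 1975 in KY, Nitab4.5_0000592g0360 of 578, 617 and 834, and Nitab4.5_0000592g0350 of 322, 409 and 653. The called gene itself has been described above, and Nitab4.5_0000592g0290 was at a mean of 0.573, 2.22 and 1.61. Summed over the scaffold the signal was 2824 ± 438 in K326, 2741 ± 200 in Y and 3845 ± 849 in KY (SD, n = 3). By its mean the highest copy was lower in Y than in K326, while the other copies were higher, apart from Nitab4.5_0000592g0380, at 0 in both.

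The scaffold of Nitab4.5_0000982g0170 held 3 members that all stepped up from K326 to Y to KY by their means. Their sum was 364, 523 and 542 in K326 replicates 1 to 3, 881, 646 and 657 in Y and 1151, 852 and 1501 in KY. The K326 and Y libraries did not overlap, and KY replicate 2 lay below Y replicate 1. Another scaffold, that of Nitab4.5_0002814g0010, held 4 members that summed to 1246 ± 217 in K326, 1253 ± 110 in Y and 1764 ± 382 in KY, with KY replicate 2, at 1330, within the range of K326.

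A pair of members owed their level to few libraries. Nitab4.5_0000592g0380 was listed at 0 in all K326 and Y libraries and in KY replicate 2, and stood at 26.2 in KY replicate 1 and 197 in KY replicate 3. It had the widest spread of the tested members and passed the filter on low values through KY alone. All 5 of its scaffold neighbours were also higher in those libraries than in KY replicate 2. Nitab4.5_0000233g0050 stood at 61.6 in Y replicate 2 and between 0 and 1.63 in the other 8 libraries, so that its Y mean rests on that library. At the lower end Nitab4.5_0000060g0040 was among the few with a higher mean in K326, at 11.2, 8.88 and 12.4 against 7.07, 5.61 and 11.1 in Y and 9.42, 6.56 and 7.29 in KY. Below a mean of 1 the highest were Nitab4.5_0004044g0020, from 0 to 2.1, and Nitab4.5_0003757g0140, from 0 to 2.68.

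Genes of processes tied to the antenna were counted by description lists. The lists were not sorted by cell compartment, so a list, such as that of membrane insertion, may hold genes that do not serve the antenna. Of 94 tested photosystem subunit genes, 1 rose in Y against K326 and 0 fell. For this and the lists below, 0.777% of all tested genes were called higher and 1.21% lower in Y against K326. In KY against K326 these shares were 0.232% and 0.557%. At an unadjusted p below 0.05, 16 were higher and 2 lower in Y, where 4.32% and 8.18% of all tested genes were. The Y libraries lay entirely above the K326 libraries for 22 of them and entirely below for 2, where 7.41% and 14.7% of all tested genes did. The fitted difference was above 0 for 72 of them, and for 40% of all tested genes. The median was 0.21, beside 0.23 for the antenna members. For KY against K326 0 were called, with 6 higher and 1 lower at an unadjusted p below 0.05, where 2.28% and 9.13% of all tested genes were, and a median of 0.18. The KY libraries lay entirely above the K326 libraries for 7 photosystem genes and entirely below for 2, where 3.21% and 12.4% of all tested genes did. The fitted difference was above 0 for 70 of the 94, and for 30.5% of all tested genes. The gene that rose was Nitab4.5_0001044g0040, for PsbW, a small subunit of photosystem II, from a mean of 97.0 in K326 to 256 in Y (log2 difference 1.40, SE 0.22, limma adjusted p = 0.0131). Limma adjusted p lay between 0.0601 and 0.0773, past the threshold, with a replicate block and on omitting any 1 of K326 replicates 1 and 3 and Y replicates 1 and 2. The highest of the list was Nitab4.5_0002475g0030, for PsbR, with means of 5382, 6178 and 6185 in K326, Y and KY. Of 33 tested chlorophyll synthesis genes 1 was called higher and 1 lower in Y and likewise in KY, both with magnesium chelatase entries, which belong to the enzyme that commits protoporphyrin to chlorophyll: Nitab4.5_0001663g0090 had means of 42.6 in K326, 78.2 in Y and 82.6 in KY, and Nitab4.5_0000733g0210 had means of 31.9, 0.0133 and 0.0433. For Nitab4.5_0001663g0090 the call in Y was lost in 8 of 19 alternatives and that in KY in 9 (limma adjusted p up to 0.121 and 0.179), which include leaving out KY replicate 3 or any 1 library of K326 or Y. Against K326, 2 synthesis genes were higher and 2 lower in Y at an unadjusted p below 0.05, where 4.32% and 8.18% of all tested genes were. In KY 7 synthesis genes were higher and 1 lower, where 2.28% and 9.13% of all tested genes were. The list's median difference was 0.06 in Y and 0.21 in KY, and its highest gene, Nitab4.5_0000123g0170, which carries a magnesium-protoporphyrin cyclase entry, had means of 1222, 1376 and 1565. Of 16 chlorophyll breakdown genes, 1 rose and 1 fell in Y and 1 fell in KY. These were pheophorbide a oxygenase-type genes, whose enzyme opens the ring of chlorophyll catabolites: Nitab4.5_0002162g0210 went from a mean of 30.5 in K326 to 74.3 in Y (limma adjusted p = 0.0151), and Nitab4.5_0003134g0120 from 3.51 to 0.01 in Y and 0.03 in KY. The first of these calls ended, at limma adjusted p between 0.0587 and 0.0768, with a replicate block and on omitting any 1 of K326 replicates 2 and 3 and Y replicates 1 and 2. The call of the second in KY ended with a pseudocount of 0.1 (limma adjusted p = 0.0631). A Staygreen gene, Nitab4.5_0000847g0060, was the highest of this list, with means of 133, 161 and 146. Against K326, 1 breakdown gene was higher and 1 lower in Y at an unadjusted p below 0.05. In KY 2 breakdown genes were higher and 1 lower. The shares of all tested genes are those given for the synthesis genes. By limma 0 genes of these 3 lists were called between KY and Y. At an unadjusted p below 0.05, 4.24% of all tested genes were higher in KY than in Y and 8.96% lower. Of the lists, 3 photosystem genes were higher and 4 lower, 3 synthesis genes higher and 1 lower, and 1 breakdown gene higher and 1 lower.

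Of 9 tested Rubisco small-chain genes 1 rose in KY, Nitab4.5_0000912g0250, from a mean of 987 in K326 to 1968 (log2 difference 0.99, SE 0.17, limma adjusted p = 0.0361). In 11 of 19 alternatives it was not called (limma adjusted p up to 0.177), including those that leave out Y replicate 1, KY replicate 2 or 3 or any 1 K326 library. Against K326, 1 small-chain gene was higher and 1 lower in Y at an unadjusted p below 0.05, where 4.32% and 8.18% of all tested genes were. In KY 4 small-chain genes were higher and 0 lower, where 2.28% and 9.13% of all tested genes were. The summed small-chain signal was 70569 ± 7056 in K326, 61638 ± 6786 in Y and 75909 ± 2156 in KY (SD, n = 3). KY replicate 2 stood at 73446 in that sum, close to KY replicates 1 and 3 at 76823 and 77456, unlike its antenna sum. The highest of these genes, Nitab4.5_0002207g0050, had means of 28208 in K326, 23368 in Y and 30451 in KY. In the xanthophyll synthesis list, with 7 tested genes for the antenna's carotenoids, and the membrane insertion list, with 16 tested genes of signal recognition particle and YidC-type insertase descriptions, 0 were called by limma in any comparison. At an unadjusted p below 0.05, 1 xanthophyll gene was higher and 0 lower in Y against K326, 1 and 0 in KY against K326, and 2 and 1 in KY against Y. For membrane insertion these counts were 0 and 1, 0 and 0, and 1 and 0. In the same order, the shares of all tested genes were 4.32% and 8.18%, 2.28% and 9.13%, and 4.24% and 8.96%. The highest members of these lists were a zeaxanthin epoxidase gene, Nitab4.5_0002016g0120, with means of 126, 133 and 136 in K326, Y and KY, and an OXA1/ALB3/YidC insertase gene, Nitab4.5_0005133g0030, with means of 96.6, 85.6 and 118.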

How the data were processed

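TRIzol-extracted leaf RNA was freed of genomic DNA and made into TruSeq libraries for paired-end sequencing, per the labels' protocols. HISAT2, StringTie and RSEM are named without version, role or order, per the submitters' processing notes; how reads were aligned and counted, and to which genome build, is not given in the sources used here. What the authors deposited is 1 table of an expression signal per gene and library, with 2 decimals and no named unit, for identifiers of the Nitab4.5 gene set; their mean columns were not used. It holds no counts, so the count test foreseen for counts was not run. Values were transformed as log2(value + 1), a pseudocount of 1, which understates the change of low genes. All 16348 genes whose mean signal reached 1 were fitted with limma 3.58.1 in R 4.3.3 (1 mean per material, empirical Bayes with a mean-variance trend), with Benjamini-Hochberg adjustment over all of them and calls at an adjusted p below 0.05. On simulated data for Y minus K326, the fit called 42 of 100 genes given a log2 change of 1 and 70 of 100 given a change of 2. There were 7 false calls. A gene that was not called may therefore still differ. Alternatives were other pseudocounts, filters and scalings, no trend, pairwise fits, a replicate block and the omission of each library. No identifier of the members matched the reference table of 79372 RefSeq genes (assembly ASM71507v2), so no symbols, coordinates or sequences are given.

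The members, lists and description classes were chosen with earlier results of these data known. Named members are the 10 highest, all called in any comparison, those with non-overlapping materials and an absolute log2 difference of at least 1, the 2 highest of each lower level class, those at 0 in 1 material and at least 1 in another, and those with the widest and narrowest spread; others are named beside a count or scaffold, chosen after their values were seen. Tobacco carries near-identical gene copies, and how reads were divided between them is not stated.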

Additional observations from a re-analysis of the deposited data

How the results depend on the processing

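The median antenna difference stayed above 0 in all 19 alternatives of each comparison, from 0.15 to 0.36 for Y minus K326, 0.16 to 0.45 for KY minus K326 and 0.00936 to 0.33 for KY minus Y. The KY minus K326 median reached 0.45 under median-of-ratios scaling, and 0.16 to 0.44 when single libraries were omitted; that of KY minus Y was then 0.00936 to 0.33, the highest values of both without KY replicate 2. Of 23 differences of single genes recomputed in these alternatives 1 changed sign, that of Nitab4.5_0000441g0070 for KY minus K326, from 0.27 to -0.031 under quantile normalization. Antenna calls for KY minus K326 went from 2 to 1 with no filter on low values, 4 with libraries scaled to an equal sum, 0 with only the compared materials fitted and 0 to 8 when single libraries were omitted. For Y minus K326 they went from 1 to 3 with only the compared materials fitted, and to 1 to 3 over the omitted libraries, as for KY minus Y. Whole-table calls of 325, 129 and 212 became 156, 60 and 127 with a mean of at least 5, where fewer genes were tested, and 127 for KY minus Y with only these fitted. Omitting single libraries gave 181 to 450, 76 to 655 (the highest without KY replicate 1) and 114 to 302. Family sums with each library scaled to a total of 1000000 were 66061 in K326, 72934 in Y and 84010.5 in KY, larger because the deposited libraries sum to less, and as deposited 34943 to 40749, 40376 to 43776 and 46049 to 54821 with 1 library of the material omitted. Other causes were not tested.

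Deviations of same-numbered libraries from their material means correlated from -0.166 to 0.177, with 2 of 9 pairs above 0.1. Those of libraries with unlike numbers correlated from -0.306 to 0.322. With 3 libraries per material, whose deviations are bound to oppose each other, this cannot show whether the replicate numbers pair the libraries. With the replicate number as a block, whole-table calls were 211, 85 and 134, and antenna calls for KY minus K326 fell to 1, where Nitab4.5_0002210g0110 had a limma adjusted p of 0.108. Read depth is unknown, so no limit from depth can be set on members listed at 0.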
